A study of Mus musculus with 35 samples.

Results

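mmu-miR-21, or miR-21 for short, is 1 of the 376 miRNAs on the PCR arrays with which small RNA of mouse liver was measured, and its values were taken from the assay that the study names miR-21. The liver samples came from 35 female Big Blue transgenic mice, 6 months old at treatment, a strain that carries a bacterial reporter gene for mutation assays. A single intraperitoneal injection of ENU, an alkylating mutagen and carcinogen, was given to 28 of them at 120 mg/kg, and 7 received only its vehicle, DMSO. Livers were taken at post-treatment day (PTD) 1, 3, 7 or 15 from 5 ENU mice each, and at PTD 30 or 120 from 4 ENU mice each. By their labels, 3 of the DMSO mice belong to day 1 and 4 to day 30, whereas the Methods of the study state 4 and 3, and the days of the controls are used here only as labelled. No DMSO mice of PTDs 3, 7, 15 or 120 are among these samples. Each mouse was 1 sample on 1 array of 384 wells, made from a piece of whole liver, so that a change in the number of cells that hold a miRNA and a change in its amount per cell cannot be told apart.

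A mature miRNA guides the Argonaute proteins to messenger RNAs, mainly through its seed (bases 2 to 8), and lowers their translation and stability. miR-21 is found in many cell types, is raised in many tumours including liver cancer, and is induced in the regenerating and in the fibrotic liver. Pdcd4 and Spry2 are among its known targets, and neither was measured here. Its precursor hairpin yields miR-21 from the 5′ arm and, in smaller amounts, the opposite strand from the 3′ arm, which the array names miR-21*.

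The sequences below show what separates the products of the precursor, with the seed in capitals. They were taken from RefSeq on assembly GRCm38.p6, matched by name, since the array uses older names and the primers of its assays are not given in the sources used here. The gene lies on the minus strand at chr11:86584067-86584158, within the span of Vmp1 (chr11:86583858-86683836). The mature sequence of miR-21 lies at chr11:86584120-86584141 and that of miR-21* at chr11:86584082-86584103. A related gene, miR-21c, has its mature sequence on the minus strand at chr8:128278188-128278208. It is the only other of 1738 mature sequences in the table with the seed of miR-21, and it shares the first 15 bases with it, so whether the assay also reads it is not known.
mmu-miR-21a-5p: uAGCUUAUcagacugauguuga
mmu-miR-21a-3p: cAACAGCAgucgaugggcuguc
mmu-miR-21c: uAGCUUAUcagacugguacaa

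The threshold cycle (Ct) of a well is the PCR cycle at which its fluorescence crosses a fixed threshold. Each cycle less means about 2-fold more RNA. miR-21 was detected in 35 of 35 arrays at a Ct between 14.9 and 18.0, with a median of 16.8. Among the Ct values of the 376 miRNAs of an array it ranked between 1 and 7 from the lowest, with a median rank of 2. Assays can differ in efficiency, so these ranks order Ct values and not amounts. miR-122, the miRNA that marks hepatocytes, had a lower Ct than miR-21 in 34 of the 35 arrays, and its -ΔCt (defined next) was between 6.13 and 8.66 in those 34. The exception was replicate 1 of PTD 15, where the -ΔCt of miR-122 was 3.29.

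For comparison between mice, the mean Ct of 4 reference small RNAs on the same array (snoRNA251, snoRNA202, snoRNA142 and U6) was subtracted from the Ct of miR-21, giving ΔCt. Levels are given as -ΔCt, where 1 unit is a 2-fold difference and a higher value stands for more RNA. A difference of mean -ΔCt is a log2 fold change. The arrays were run in 3 separate periods. Period 1 held the 3 controls of day 1, 4 mice of PTD 1 and all mice of PTDs 3, 7 and 15. Period 2 held 2 controls of day 30, the remaining mouse of PTD 1 and all mice of PTDs 30 and 120, and period 3 held the other 2 controls of day 30.

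The control mice fell into separate ranges of miR-21. The -ΔCt of the controls labelled day 1 was 4.45, 4.59 and 3.30. In the controls labelled day 30 it was 5.55, 5.69, 5.80 and 5.93. All 4 of the later controls lay above all 3 of the earlier ones, and the replicates of day 30 spanned a much narrower range. The means were 4.11 ± 0.71 (SD, n = 3) and 5.74 ± 0.16 (SD, n = 4), a difference of 1.63 or 3.10-fold (exact permutation test, two-sided, p = 0.0286, the smallest that 3 against 4 mice allow). In the limma fit over all miRNAs the difference had an SE of 0.35 and an adjusted p of 0.0125, in a comparison where 28.5% of the 376 miRNAs passed a p under 0.01 and a fold change above 2.

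The difference between the control sets was not particular to miR-21. The median over all 376 miRNAs was 1.00 higher in the controls of day 30, and 84 of the 376 were higher there by more than miR-21. After each array was scaled to its own median Ct in place of the reference RNAs, miR-21 differed by 0.73 (exact permutation test, p = 0.114, n = 3 and 4). No DMSO array of day 1 shared a run period with one of day 30, so day and run period cannot be told apart. The 5 marker lists of cell types were also higher in the controls of day 30, as was the median miRNA. The summed level of a list is the log2 of the sum of 2 to the power of -ΔCt over its members. The members with the highest -ΔCt weigh most in it. The summed level of the hepatocyte list (4 miRNAs) was 7.12 to 7.58 at day 1 and 8.57 to 8.80 at day 30. That of the leukocyte list (5) was -0.37 to 0.40 and 0.69 to 1.30, and that of the endothelial list (2) was 3.01 to 3.94 and 4.81 to 5.35. The erythroid list (3) ranged from 2.09 to 2.25 and from 2.70 to 3.43, and the mesenchymal list (3) from -1.37 to -0.65 and from 0.66 to 0.97. The part of these cell types in the difference of miR-21 was not tested.

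**Figure D1:**
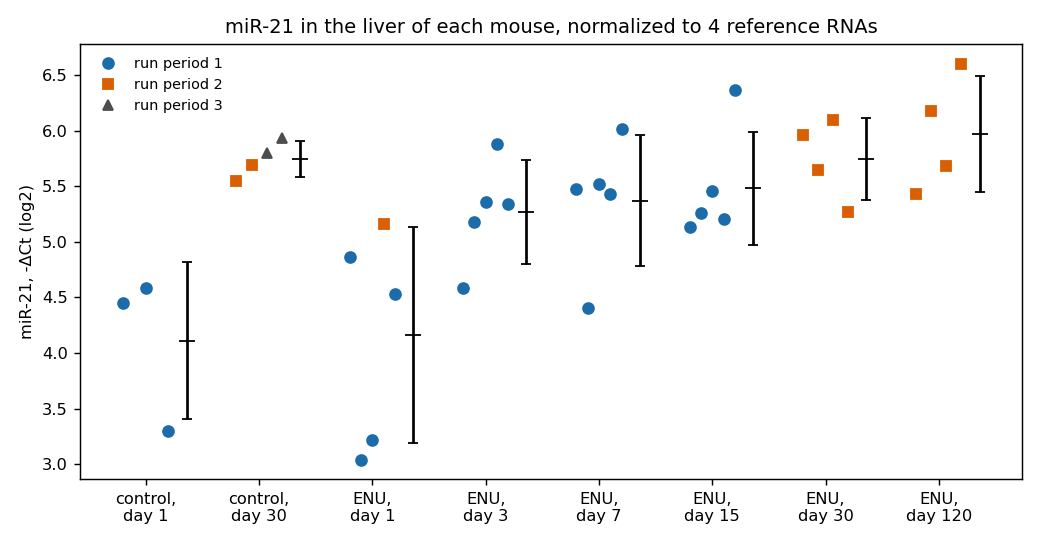
miR-21 as -ΔCt (log2 scale, vertical axis) in each of the 35 mice by group (horizontal axis), with point shape and colour giving the run period, and bars giving the mean ± SD. The day 1 controls (3.30 to 4.59) and the PTD 1 mice (3.04 to 5.16) reach lower than the other groups, and the day 30 controls (5.55 to 5.93) lie among the later ENU groups.

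The study pooled the 7 controls. Their -ΔCt had a lowest value of 3.30, a median of 5.55 and a highest value of 5.93, with a mean of 5.04 ± 0.97 (SD, n = 7). A miRNA was called a differentially expressed miRNA (DEM) at a PTD where the limma p, not adjusted, was under 0.01 and the fold change was above 2. Against these 7 controls, with no term for the run period, miR-21 was a DEM at none of the 6 PTDs. Its unadjusted p in limma was between 0.0885 and 0.635 and its adjusted p between 0.446 and 0.928.

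At PTD 1 the -ΔCt of miR-21 was 4.86, 3.04, 3.22, 5.16 and 4.53. Replicates 2 and 3 lay below every control, while the other 3 mice were within the range of the controls. The mean of 4.16 ± 0.97 (SD, n = 5) gave a log2 fold change of -0.88 (SE 0.53, 95% interval -2.02 to 0.26, limma adjusted p = 0.669). The exact permutation test gave p = 0.149. At this PTD, 1.33% of the 376 miRNAs were DEMs and the median log2 fold change over all of them was -0.37.

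At PTD 3 the values were 4.58, 5.18, 5.36, 5.88 and 5.34. The value of replicate 3 follows from its deposited Ct and differs from the ΔCt listed by the study. All 5 fell within the range of the controls, and 4 of them above the control mean. The mean was 5.27 ± 0.46 (SD, n = 5), with a log2 fold change of 0.22 (SE 0.46, 95% interval -0.77 to 1.22, limma adjusted p = 0.928), where 2.13% of the miRNAs were DEMs.

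At PTD 7 the values were 5.48, 4.41, 5.52, 5.43 and 6.02. Replicate 5 lay above every control and replicate 2 was the lowest of its group. The log2 fold change was 0.33 (SE 0.47, 95% interval -0.68 to 1.33, limma adjusted p = 0.688) from a mean of 5.37 ± 0.59 (SD, n = 5). At PTD 15 the values were 5.14, 5.26, 5.46, 5.20 and 6.37. Replicate 5 again lay above every control, and the other 4 were close together. The mean was 5.48 ± 0.51 (SD, n = 5) and the log2 fold change 0.44 (SE 0.46, 95% interval -0.55 to 1.43, limma adjusted p = 0.533). These were the PTDs with the most DEMs, 9.84% and 11.4% of the 376 miRNAs.

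At PTD 30 the values were 5.96, 5.64, 6.10 and 5.27. Replicates 1 and 3 lay above every control, and all 4 lay above the control mean. The mean was 5.74 ± 0.37 (SD, n = 4), a log2 fold change of 0.70 (SE 0.49, 95% interval -0.36 to 1.76, limma adjusted p = 0.467), where 1.6% of the miRNAs were DEMs. At PTD 120 the values were 5.43, 6.18, 5.69 and 6.60. Replicates 2 and 4 lay above every control, and replicate 4 was the highest of all 35 mice. The mean of 5.97 ± 0.52 (SD, n = 4) gave the highest log2 fold change, 0.93 or 1.91-fold (SE 0.51, 95% interval -0.16 to 2.02, limma adjusted p = 0.446), where 1.33% of the miRNAs were DEMs. In the exact permutation tests of PTDs 3 to 120, p was 0.673, 0.578, 0.400, 0.236 and 0.121 in that order. At PTD 120 the summed level of the leukocyte list was 1.42 to 2.20, above the range of the 7 controls (-0.37 to 1.30). The log2 fold change of the median miRNA was 0.46 at that PTD. No member of the list was a DEM there on the scale of the array median. The part of the leukocyte list in the level of miR-21 was not tested.

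Read against the whole array, miR-21 stood 0.52 below the log2 fold change of the median miRNA at PTD 1. It stood 0.21, 0.14, 0.08, 0.16 and 0.47 above the median at PTDs 3, 7, 15, 30 and 120. Of the other miRNAs, 324 had a higher log2 fold change than miR-21 at PTD 1 and 59 at PTD 120. With the array median in place of the reference RNAs, which moves the median miRNA by between -0.42 and 0.37 on the log2 scale, its log2 fold changes were -0.51, 0.52, 0.63, 0.47, 0.29 and 0.51 from PTD 1 to PTD 120. On that scale 4 of the 5 mice of PTD 7 lay above every control (exact permutation test, p = 0.0391, adjusted over the 6 PTDs 0.235).

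Ordered by mean -ΔCt, the groups ran from the controls of day 1 through ENU at PTDs 1, 3, 7 and 15 to the controls of day 30 and then ENU at PTDs 30 and 120. Of the 7 steps between neighbours in that order, the step of 1.11 from PTD 1 to PTD 3 was larger than the larger SD of its groups, and the other 6 steps, each at most 0.26, were not. Between these PTDs, 4 of the 5 mice of PTD 3 lay above all of PTD 1 (exact permutation test, p = 0.0476, adjusted over the 5 consecutive pairs 0.238). On the scale of the array median 1 of the 5 lay above all of PTD 1 (p = 0.0635, exact permutation test), and without snoRNA202 none did (p = 0.0952, exact permutation test). The changes from PTD 3 to 7, 7 to 15, 15 to 30 and 30 to 120 were 0.10, 0.11, 0.26 and 0.23 (exact permutation tests, p = 0.714, 0.794, 0.397 and 0.486).

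Since the control sets differ, the comparison of miR-21 with the controls turned on which of them were used. The labels allow comparisons matched by day at PTDs 1 and 30. Against the 3 controls of day 1, the log2 fold change at PTD 1 was 0.05 (exact permutation test, p = 0.911) with a 95% interval from limma of -1.21 to 1.31, where 1.06% of the miRNAs passed the thresholds. Against the 4 controls of day 30, the log2 fold change at PTD 30 was 0.00 with an interval of -0.63 to 0.63 (exact permutation test, p = 1), where 1.33% passed. The groups overlapped in both comparisons. The ENU effect at PTD 30 minus that at PTD 1 was -0.05 (SE 0.66, limma adjusted p = 0.996). Changes of 1 log2 unit in either direction at PTD 1 lie within the interval.

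For the other PTDs no control has the same day. Against the controls of day 1 alone, miR-21 was higher by 1.16, 1.26, 1.37 and 1.86 at PTDs 3, 7, 15 and 120 (exact permutation tests, p = 0.0357, 0.0536, 0.0179 and 0.0286). Adjusted over the 6 PTDs, these exact p values were 0.0536, 0.0643, 0.0536 and 0.0536. Against the controls of day 30 alone, the differences were -0.47, -0.37 and -0.26 at PTDs 3, 7 and 15 and 0.23 at PTD 120 (exact permutation tests, p = 0.0794, 0.262, 0.373 and 0.486). The direction at PTDs 3, 7 and 15 therefore differed between the control sets. In limma, miR-21 passed the DEM thresholds against the day 1 controls at PTDs 15, 30 and 120 (adjusted p = 0.0217, 0.0134 and 0.0199), where 40.4%, 37.5% and 27.9% of the miRNAs passed. Against the day 30 controls it passed at PTD 1, with lower expression (adjusted p = 0.0687), where 13% passed.

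**Figure D2:**
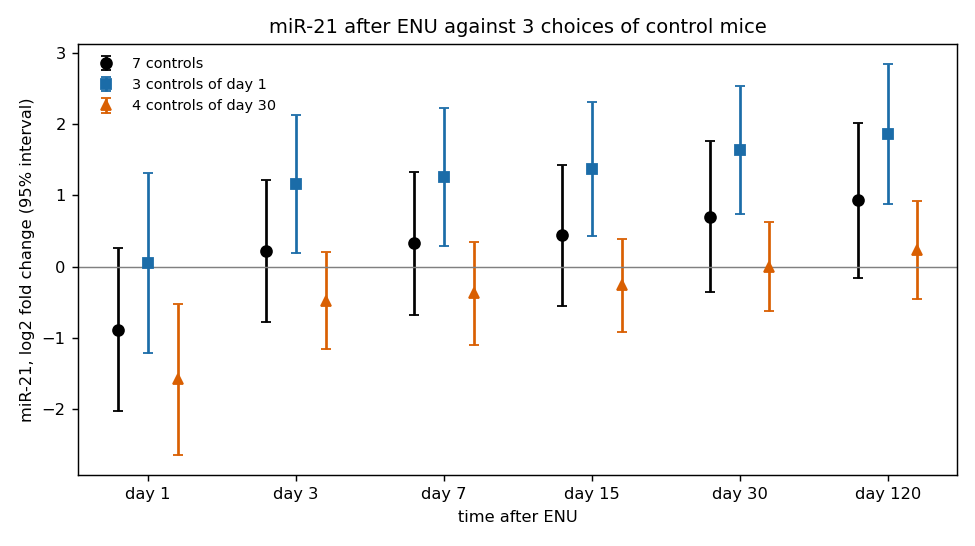
Log2 fold change of miR-21 (vertical axis) at each PTD (horizontal axis) against all 7 controls, the 3 of day 1 or the 4 of day 30, with 95% intervals from limma. At PTD 15 the values are 0.44, 1.37 and -0.26, and at PTD 1 they are -0.88, 0.05 and -1.58.

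Within a run period, the controls available were the 3 of day 1 for period 1 and 2 of day 30 for period 2. The values of PTDs 3, 7 and 15 within period 1 are thus those against the day 1 controls, with 4 of 5, 4 of 5 and 5 of 5 mice above every control (exact permutation tests, adjusted p = 0.107 for each). In limma, miR-21 passed the DEM thresholds within period 1 at PTD 15 (adjusted p = 0.0217), as did 40.4% of the miRNAs. With the run period as a block it passed at PTDs 7 and 15 (limma adjusted p = 0.0198 and 0.00967), as did 38% and 42.6% of the miRNAs. The blocked fold changes are those against the 3 day 1 controls, since no other control shares period 1, and the other 4 controls add only to the estimate of the spread. On the scale of the array median they were 0.94, 1.04 and 0.89 (exact permutation tests, p = 0.143, 0.0357 and 0.0536). The 4 mice of PTD 1 run in period 1 differed from these controls by -0.20 (exact permutation test, p = 0.829). In period 2, miR-21 differed by 0.12 at PTD 30 and 0.35 at PTD 120 (exact permutation tests, p = 0.8 and 0.533, with 4 mice against 2, where the smallest p is 0.0667). The arrays of period 1 were run group after group, so that run order and group cannot be told apart within it.

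The Ct of miR-21 before any normalization and that of the reference RNAs varied in different ways. The mean Ct of miR-21 was 17.1 in the controls of day 1 and 16.4 in those of day 30. In the ENU groups it was 17.4, 16.8, 16.9, 17.0, 16.2 and 16.0 from PTD 1 to PTD 120. Without normalization the groups run in period 1 thus had the higher means, and those of PTDs 30 and 120 the lowest means. For the 4 reference RNAs the mean Ct was 21.2 and 22.1 in the control sets and 21.6, 22.1, 22.3, 22.5, 21.9 and 22 in the ENU groups. At PTDs 3, 7 and 15 the mean Ct of miR-21 was 0.35, 0.25 and 0.094 cycles lower than in the day 1 controls, while the reference mean was 0.81, 1.01 and 1.28 cycles higher. The high -ΔCt of replicate 5 of PTD 15 came with a Ct of 17.2, the highest of its group, and with the highest reference mean of all arrays, 23.5.

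**Figure D3:**
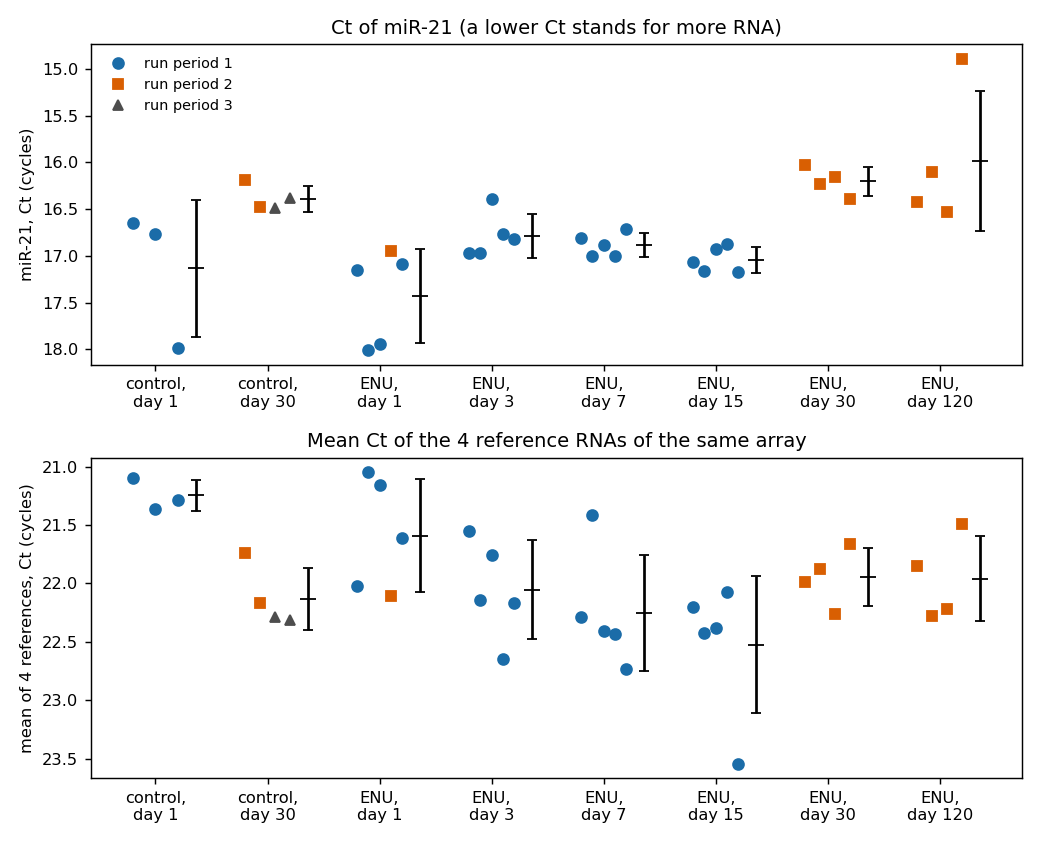
Ct of miR-21 (upper panel) and mean Ct of the 4 reference RNAs (lower panel) in each array by group, in cycles on reversed axes so that more RNA is higher, with mean ± SD bars and run periods by shape and colour. The miR-21 Ct of PTDs 3, 7 and 15 stays between 16.4 and 17.2, while the reference mean of these groups runs from 21.4 to 23.5.

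How far miR-21 varied with 3 measures of whole arrays among the mice of a group depended on the scale. Deviations from the group means were used for all 35 arrays. The -ΔCt of miR-21 rose with the reference mean Ct, with r = 0.74 (permutation test, p = 1e-05, the smallest that 100000 permutations give, adjusted p = 3e-05), rho = 0.68 (p = 2e-05), and r = 0.67 without the 2 farthest arrays. The reference mean enters -ΔCt itself, and the Ct of miR-21 had r = -0.02 with it, while on the scale of the array median r was 0.46. With the median -ΔCt of all miRNAs, r was 0.47 (permutation test, p = 0.0045, adjusted p = 0.00675), rho was 0.49 (p = 0.00294) and r was 0.36 without the 2 farthest arrays. That median shares the reference mean with miR-21, and on the scale of the array median r was -0.13. The difference between the 2 reverse transcription control wells had r = 0.28 and rho = 0.28 (permutation tests, p = 0.0997 and 0.105), and r = 0.21 without the 2 farthest arrays. On the scale of the array median, which leaves out the reference RNAs, r with this difference was 0.49, the highest of the 3 there. Within PTD 3 the difference between the control wells was -0.29 and -0.19 in replicates 1 and 2, and 0.17, 0.17 and 0.15 in replicates 3, 4 and 5.

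A ratio within an array needs no reference RNA. The Ct of miR-21*, the other arm of the precursor, was between 28.8 and 32.5. The Ct of miR-21* minus that of miR-21 was 13.8 ± 0.86 (SD, n = 7) in the controls, with a lowest value of 12.5, a median of 14.1 and a highest of 14.8. A higher difference stands for more miR-21 relative to miR-21*.

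At PTD 120 the difference between the arms was 14.3, 15.6, 14.4 and 16.2. Replicates 2 and 4 lay above every control and all 4 above the control mean. The mean of 15.1 ± 0.95 (SD, n = 4) was 1.30 higher than in the controls (exact permutation test, p = 0.0515, adjusted over the 6 PTDs 0.309). At PTD 30 the difference was 15.3, 14.4, 15.0 and 14.1. Replicates 1 and 3 lay above every control, and the mean of 14.7 ± 0.53 (SD, n = 4) was 0.85 higher (exact permutation test, p = 0.115). At PTDs 1, 3, 7 and 15 the means differed from the controls by 0.31, -0.10, -0.35 and -0.27 (exact permutation tests, adjusted p from 0.686 to 0.817). Thus no PTD differed from the controls after adjustment.

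Against the 4 controls of day 30, all 4 mice of PTD 120 had a higher arm difference, by 1.51 (exact permutation test, p = 0.0286, the smallest possible, adjusted over the 6 PTDs 0.171). Against the 2 of these controls from the same run period the value was 0.96 (exact permutation test, p = 0.133). The control sets themselves differed by -0.47 in this measure (exact permutation test, p = 0.486), less than the SD of either. The log2 fold changes of miR-21* against the 7 controls were -1.19, 0.32, 0.68, 0.71, -0.15 and -0.37 from PTD 1 to PTD 120, with SEs of 0.56 to 0.65, and it was a DEM at none of these PTDs. Between the control sets miR-21* differed by 2.10 in the same direction as miR-21 (limma adjusted p = 0.0184).

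**Figure D4:**
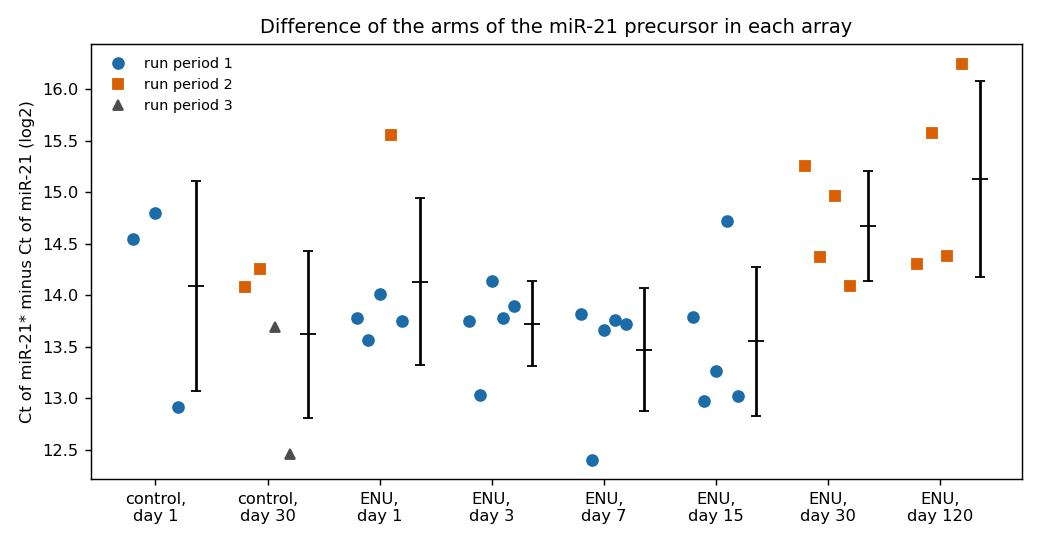
Ct of miR-21* minus Ct of miR-21 (log2 scale, vertical axis) in each array by group, with mean ± SD bars and run periods by shape and colour. The means of PTDs 30 and 120 are 14.7 and 15.1, against 13.8 in the 7 controls, whose highest value is 14.8.

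Relative to miR-122, miR-21 did not pass the test at any PTD. The Ct of miR-122 minus that of miR-21 had a mean of -2.55 ± 0.44 (SD, n = 7) in the controls. It differed from the controls by -0.23, 0.26, 0.15, 1.02, 0.18 and 0.49 from PTD 1 to PTD 120 (exact permutation tests, adjusted p from 0.326 to 0.640). The value of PTD 15 rests on replicate 1, at 1.85, where the Ct of miR-122 was 18.9, while the other 4 mice lay between -2.54 and -2.24. The control sets differed by 0.38 in this ratio (exact permutation test, p = 0.400), against 1.63 in -ΔCt.

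miR-590-5p, from a separate gene, is known as a miRNA with the seed of miR-21. No entry for it was found in the sequence table used here, so its seed was not checked. It was far less readily detected, at a Ct between 31.3 and 37.4. In the controls its -ΔCt had a lowest value of -15.1, a median of -11.1 and a highest value of -10.5. At PTD 30 it was -9.45, -10.5, -10.4 and -9.68. All 4 of these mice lay above every control, with a log2 fold change of 1.81 (SE 0.71, limma adjusted p = 0.435), and it was not a DEM. The exact permutation test gave p = 0.0212, or 0.127 adjusted over the 6 PTDs. At the other PTDs its log2 fold change was 0.27, -0.82, 0.03, -0.15 and 0.38 (PTDs 1, 3, 7, 15 and 120), and at PTD 120 it was -0.04 on the scale of the array median.

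The miRNAs whose -ΔCt ran most like that of miR-21 over the 35 arrays were named by Pearson r among 200 others with a mean Ct of at most 30 and a Ct in every array. They were miR-802 (r = 0.958), a liver-enriched miRNA, miR-322 (0.958), miR-126-3p (0.955), the endothelial miRNA, miR-340-3p (0.954) and miR-10a (0.951), whose gene lies in a Hox cluster. The median r over the 200 was 0.673, and 56 of them had an r above 0.8. All these values share the reference RNAs of an array. With the array median as the scale the same 5 miRNAs came out, with r from 0.913 to 0.923, beside a median of 0.432. As deviations from the group means, r was between 0.905 and 0.945 on the scale of the reference RNAs and between 0.887 and 0.925 on that of the array median. For miR-122, r over the 35 arrays was 0.587, or 0.366 on the scale of the array median, and as deviations from the group means it was 0.489 and 0.350.

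**Figure D5:**
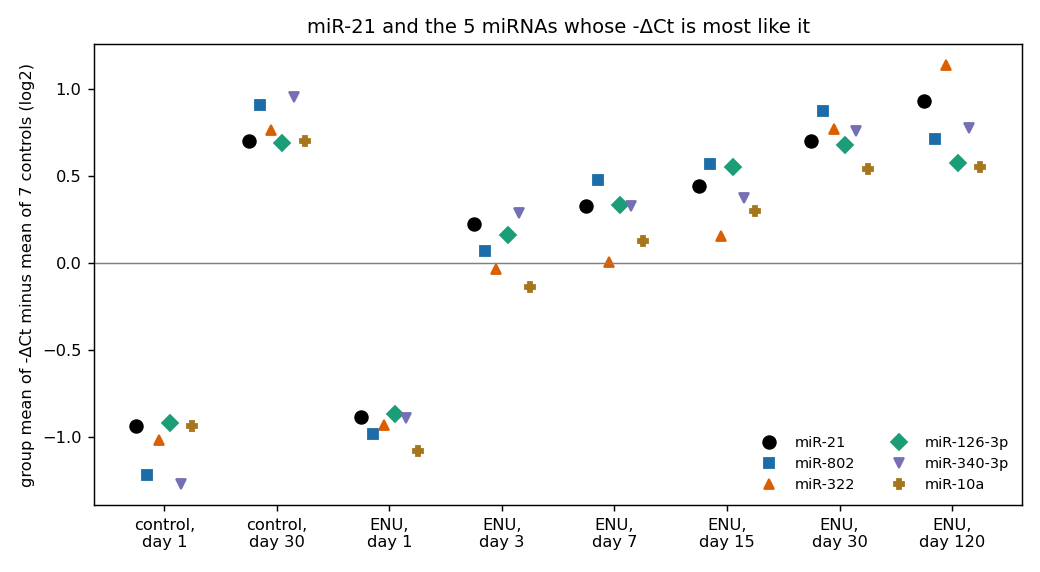
Group mean of -ΔCt minus the mean of the 7 controls (log2 scale, vertical axis) for miR-21 and the 5 miRNAs most like it, by group (horizontal axis). All 6 lie between -1.27 and -0.86 in the day 1 controls and at PTD 1, and between 0.54 and 1.14 in the day 30 controls and at PTDs 30 and 120.

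miR-21 is often listed with other oncogenic and proliferation-linked miRNAs, here the 11 of the miR-17-92 and miR-106b-25 clusters with miR-221 and miR-222. Of these 11, miR-222 was a DEM with higher expression at PTDs 3, 7 and 15, with log2 fold changes of 1.31, 1.34 and 1.69. miR-106b and miR-93 were DEMs at PTD 15, with log2 fold changes of 1.09 and 1.04. Over all 376 miRNAs, 1.33%, 2.39% and 6.65% were DEMs with higher expression at these PTDs. No member was a DEM at PTDs 1, 30 or 120, and none was a DEM with lower expression at any PTD. Their limma adjusted p was 0.351, 0.0482 and 0.0154 for miR-222 at the 3 PTDs, and 0.0229 and 0.0396 for miR-106b and miR-93. With the array median as the scale, miR-221 joined miR-222 at PTD 3, and 5 of the 11 were DEMs at PTD 7, where 4.26% and 11.7% of all miRNAs were DEMs with higher expression on that scale. The median log2 fold change of the 11 was -0.30, 0.50, 0.67, 0.86, 0.68 and 0.56 from PTD 1 to PTD 120, beside -0.37, 0.02, 0.19, 0.36, 0.54 and 0.46 over all miRNAs. miR-21, at 0.22, 0.33 and 0.44, was below the median of these 11 at PTDs 3, 7 and 15, as it was at PTD 1 (-0.88), and at 0.70 and 0.93 it was above their median at PTDs 30 and 120.

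Of the 3 miRNAs induced by the inflammatory factor NF-kB (miR-146a, miR-146b and miR-155), miR-146a was a DEM with lower expression at PTD 1. Its log2 fold change against the 7 controls was -1.33, where 0.798% of all miRNAs were DEMs with lower expression. The summed level of the 3 miRNAs had a median of -0.25 at PTD 1, -0.30 in the day 1 controls and 1.26 in those of day 30. None of the 3 was called at PTD 3 or later in limma or reached an unadjusted p under 0.05 there. With the array median as the scale miR-146a was not a DEM (limma adjusted p = 0.669 on the main scale). None of the 3 members of the antifibrotic miR-29 family was a DEM at any PTD in limma, with 1 at an unadjusted p under 0.05 (PTD 3), while on the scale of the array median miR-29a was a DEM at PTDs 3 and 7, where 4.26% and 11.7% of all miRNAs were DEMs with higher expression. Their median log2 fold change was -0.48 at PTD 1 and 0.68, 0.33, 0.61, 0.88 and 0.59 at PTDs 3 to 120, beside -0.37, 0.02, 0.19, 0.36, 0.54 and 0.46 over all miRNAs.

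Among the marker lists of cell types, no hepatocyte, endothelial or mesenchymal member was a DEM at any PTD in limma, and 1 of them, mesenchymal at PTD 15, had an unadjusted p under 0.05. In the leukocyte list, miR-150 of lymphocytes was lower at PTD 1, by a log2 fold change of -1.72 (limma adjusted p = 0.108). At that PTD 0.798% of all miRNAs were DEMs with lower expression. miR-142-3p, which marks cells of blood origin, was higher at PTD 120, by 1.35 (limma adjusted p = 0.446), where 1.33% were DEMs with higher expression. It was no DEM there on the scale of the array median. Of the same list, miR-142-5p was a DEM at no PTD. Its log2 fold change was -1.16, -0.95 and 1.46 at PTDs 7, 15 and 120 (limma, unadjusted p = 0.0148, 0.0398 and 0.0141). In the erythroid list, miR-144 and miR-451 were higher at PTD 15, by 1.52 and 1.04 (limma adjusted p = 0.0162 and 0.0635). At that PTD 6.65% of all miRNAs were DEMs with higher expression. On the scale of the array median miR-451 was also a DEM at PTD 7, where 11.7% of all miRNAs were DEMs with higher expression. The part of these cells in the level of miR-21 was not tested.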

How the data were processed

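Liver small RNA of 35 mice was measured on SABiosciences PCR arrays, 1 per mouse. The authors deposited the Ct of every well (SDS, version 2.3, threshold 0.15, 40 cycles) without normalization, and no other value or score was used. The Ct is on a log2 scale. Wells were named from the assay list of the study. The 15 Undetermined wells, none of miR-21, were treated as missing. For replicate 3 of PTD 3, the deposited Ct values do not give the ΔCt listed by the study, and the deposited values were used. ΔCt was taken against 4 reference RNAs, as in the study. Each ENU group was compared with the 7 controls on -ΔCt over all 376 miRNAs in limma (version 3.58.1, R version 4.3.3, two-sided, Benjamini-Hochberg adjustment), and single values by exact permutation tests in Python (version 3.11.15, scipy 1.17.1, numpy 2.4.6, pandas 2.3.3). The DEM thresholds were those of the study, whose own test was a t-test. Intervals are at 95%. The limma step was tested on simulated data.

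The miRNA, its relatives and the lists were chosen with earlier results of these data known. Named miRNAs were miR-21, miR-21*, miR-590-5p, miR-122, the references, the 5 most alike and list members called as DEMs. Run periods came from run records in the files. Alternatives were the array median, each set of 3 references, either control set, the run period or the replicate number as a block, the control wells as a covariate and each mouse left out. The array median within run periods, the arm difference within run periods, PTD 1 without its mouse of period 2 and the relations without the 2 farthest arrays were added after the data had been examined. The number of arrays limits the precision, and no depth applies.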

Additional observations from a re-analysis of the deposited data

Results flagged for a closer look

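Of 32 groups of 4 to 10 values, 6 held a sample set apart from the others by Dixon's test, which flags about 1 group in 20 by chance. For miR-21, replicate 5 of PTD 15, at a -ΔCt of 6.37, was set apart from the other 4 mice of its group (gap over range 0.741). For miR-590-5p, replicate 4 of the day 30 controls, at -15.1, was set apart both among the 4 controls of its day (0.955) and among all 7 controls (0.680), and replicate 5 of PTD 15, at -9.62, was set apart in its group (0.893). For the difference between the arms of the precursor, replicate 4 of PTD 1, at 15.6, was the highest (0.774) and was the mouse of its group whose array was run in period 2, and replicate 2 of PTD 7, at 12.4, was the lowest (0.890).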

How the results depend on the processing

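The number of arrays and the split of the controls over run periods limit these values. Against the 7 controls, the array median and each set of 3 references kept the direction at every PTD and made no call of miR-21. Against the controls of day 30 alone, miR-21 was called at PTD 1 (-1.58) and turned to -0.47, -0.37 and -0.26 at PTDs 3, 7 and 15. Against those of day 1 alone, it turned to 0.051 at PTD 1 and was called at PTDs 15, 30 and 120 (1.37, 1.63 and 1.86), and in the same run period it was called at PTD 15 (1.37). With the run period as a block it was called at PTDs 7 and 15 (1.26 and 1.37), and with the control wells as a covariate PTD 7 turned to -0.011. The cause was not tested.

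For the exact tests below, passed means an unadjusted p under 0.05, and none of these values passed after adjustment where the p was adjusted over several PTDs. With the array median, PTD 1 against the day 1 controls was -0.10, PTD 30 against the day 30 controls -0.019, the difference of these effects 0.077, PTD 15 against PTD 7 -0.15 and PTD 30 against PTD 15 -0.18, all with the opposite sign. On that scale the difference between the control sets (0.73) and PTD 3 against PTD 1 (1.03) no longer passed, nor did the values within run periods at PTDs 3 and 15 (0.94 and 0.89), while that of PTD 7 (1.04) passed (adjusted exact p = 0.161). Without snoRNA142, PTD 1 and PTD 30 against the controls of their day were -0.053 and -0.17. Without U6, PTD 1 against the day 1 controls was -0.028, PTD 15 against PTD 7 -0.018 and the difference of the day-matched effects 0.061, which was 0.025 without snoRNA251. Without snoRNA202, PTD 7 against PTD 3 was -0.016. PTD 3 against PTD 1 did not pass without snoRNA251 (1.02), snoRNA202 (1.17) or snoRNA142 (1.07). miR-590-5p at PTD 120 was -0.042 with the array median. The difference between the arms turned to -0.31 at PTD 1 within the run period and to 0.10 at PTD 3 against the day 30 controls, and passed at PTD 120 against these (1.51, adjusted exact p = 0.171).

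With each mouse left out in turn, the log2 fold change against the 7 controls ranged from -1.17 to -0.60 at PTD 1, -0.066 to 0.40 at PTD 3, 0.04 to 0.57 at PTD 7, 0.15 to 0.59 at PTD 15, 0.41 to 0.86 at PTD 30 and 0.64 to 1.11 at PTD 120. PTD 1 against its day's controls ranged from -0.36 to 0.33, PTD 30 from -0.12 to 0.16, and the difference of these effects from -0.33 to 0.36. The control sets differed by 1.23 to 1.87, PTD 3 and PTD 1 by 0.83 to 1.36, PTDs 7 and 3 by -0.069 to 0.34, PTDs 15 and 7 by -0.13 to 0.28, PTDs 30 and 15 by 0.14 to 0.48 and PTDs 120 and 30 by 0.02 to 0.41. The value at PTD 3 was below 0 only without replicate 3 of the day 1 controls. With any control left out, the control sets still did not overlap, but the smallest exact p is 0.0667 (4 against 2) or 0.1 (3 against 3), so none could pass. PTD 3 against PTD 1 did not pass without replicate 2, 3, 4 or 5 of PTD 3, or 2, 3 or 5 of PTD 1. The difference between the arms ranged from -0.046 to 0.47, -0.33 to 0.072, -0.58 to -0.08, -0.56 to -0.11, 0.62 to 1.04 and 0.93 to 1.58 from PTD 1 to PTD 120. PTD 1 was below 0 without its replicate 4, PTD 3 was above 0 without its replicate 2 or replicate 1 or 2 of the day 1 controls, and PTD 120 passed without its replicate 1 or 3 or without replicate 1 or 2 of the day 1 controls.

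The replicate numbers name different mice, and among 42 pairs of samples with the same number in different groups 8 had a correlation of their deviations above 0.1. Of these, 4 were all the pairs of the day 30 controls with PTD 3, where the differences of miR-21 within pairs had a mean of -0.49 and were below 0 in 4 of 4 (exact sign-flip test, p = 0.125, the smallest possible), a test added after the data had been examined. With the replicate number as a block, the log2 fold changes were -1.10, 0.11, 0.09, 0.16, 0.67 and 0.83, and no call changed.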
